A study of Mus musculus with 6 samples.

Results

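Ap1ar, the 8 genes for the subunits of the AP-1 vesicle coat and Tifa, a gene that overlaps the span of Ap1ar, were followed in intestinal tissue of mice given cold water. These 10 genes were taken by their symbols from a table of 55267 genes, and they carry 66 of its 142604 annotated isoforms. Ap1ar was chosen by these measured values, its lower level in cold water than in control, so they are a description of that contrast with no test. All 10 genes passed the filter of a mean of at least 1 FPKM (a level scaled by transcript length and library size) over the 6 libraries.

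Every mouse was gavaged daily with 1 ml of water over 14 days. Cold water mice (3 libraries) got theirs at 8 am and at 0 to 4 °C, and control mice (3 libraries) at 9 am and at 20 to 25 °C, so temperature and hour cannot be told apart. Both groups were housed at 22 °C, and strain, sex and age were not stated. The sample labels name proximal jejunum and the series' design text names colon. The small intestinal enterocyte markers (8 genes) had a median of 529.5 to 823.5 FPKM in the 6 libraries, whereas the medians of the ileal (3 genes) and colon markers (5 genes) were at most 0.117 and 0.936 FPKM. Nothing in the labels says that each library came from a separate mouse, so p-values measure the spread between these libraries, which may be technical.

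The product of Ap1ar, known as gadkin or gamma-BAR, is a membrane-anchored adaptor on vesicles that leave the trans-Golgi network and endosomes. It binds the ear of the gamma subunit of AP-1, links AP-1 vesicles to kinesin-1, the motor that walks toward the plus end of microtubules, and binds the actin-nucleating Arp2/3 complex, which it holds in an inactive state. AP-1 itself is a clathrin adaptor of 4 subunits, a gamma and a beta large subunit, a medium mu subunit and a small sigma subunit, that sorts membrane proteins between the trans-Golgi network and endosomes. In epithelial cells a second medium subunit, mu1B, takes part in sorting to the basolateral membrane. TIFA belongs to another pathway, in which the kinase ALPK1 senses a bacterial sugar and TIFA then activates TRAF6.

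Ap1ar lies on the minus strand at chr3:127807007-127837523 (ENSMUSG00000074238; the table's coordinates, identical to GENCODE M21 on GRCm38). It has 10 annotated isoforms, of which 2 are protein-coding, 7 are retained-intron transcripts and 1 is marked for nonsense-mediated decay. The 2 coding isoforms, ENSMUST00000051737 and ENSMUST00000200409, differ in the coding sequence by exon 6 of the former, at chr3:127815596-127815694, which the latter skips. The exon of 99 bases is shown because it is the one stretch of coding sequence by which the main transcript can be told from the other, and it keeps the reading frame with 33 codons.
Ap1ar exon 6: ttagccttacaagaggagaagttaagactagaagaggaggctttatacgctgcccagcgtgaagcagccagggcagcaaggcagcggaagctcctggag

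The Ap1ar transcript level was 11.7, 12.6 and 8.58 FPKM in cold water 1, 2 and 3. It was 42.3, 36.1 and 32.9 FPKM in control 1, 2 and 3. Each control library was thus far above each cold water library, and within a group the 3 values lay close together. In CPM (estimated counts relative to the scaled library total, not divided by length) the cold water libraries had 29.5, 28.4 and 25.1 and the controls 117.8, 91.7 and 92.3. The group means ± SD were 27.7 ± 2.30 and 101 ± 14.9 CPM (n = 3 libraries each), and the lowest control stood 3.11-fold above the highest cold water library. The log2 difference, cold water minus control, was -1.86 (SE 0.158), a 3.64-fold lower level. Over 15 other ways of scaling, filtering, modelling or leaving out a library, this difference ranged from -1.94 to -1.68.

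**Figure D1:**
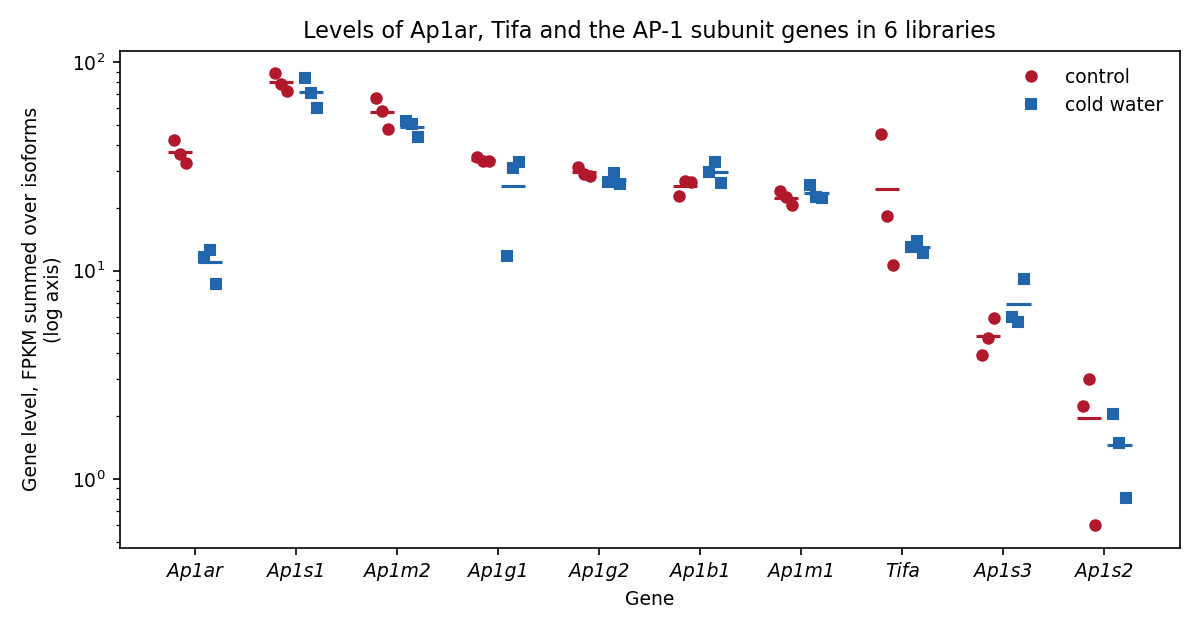
Transcript level of Ap1ar, the 8 AP-1 subunit genes and Tifa in each library, in FPKM on a log axis, with 1 point per library for 3 cold water and 3 control libraries. Ap1ar has its groups apart (8.58 to 12.6 against 32.9 to 42.3 FPKM), while a single cold water library stands low for Ap1g1 and a single control stands high for Tifa.

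Most of the Ap1ar signal came from the full-length coding isoform ENSMUST00000051737. Its level was 9.84, 7.12 and 6.88 FPKM in cold water and 40.1, 33.1 and 20.4 FPKM in control. It was thus lower in all 3 cold water libraries than in any control, and its log2 difference was -1.95 (SE 0.263). It held 89.5, 73.3 and 89.1% of the gene's estimated counts in cold water, and 98.0, 95.9 and 71.1% in control, so its share overlapped between the groups. In control 3, which had the lowest share, more of the gene was assigned to the isoform without exon 6, ENSMUST00000200409, at 3.89 FPKM against 0.05 to 0.33 FPKM in the other 5 libraries. Control 3 also had the most of ENSMUST00000198626, a single-exon retained-intron transcript over the last exon of the coding isoforms, at 6.52 FPKM against 0.13 to 2.88 FPKM elsewhere. The sum of the 2 coding isoforms gave a log2 difference of -1.97 (SE 0.193), and the other 7 minor isoforms each had a mean of at most 0.55 FPKM.

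**Figure D2:**
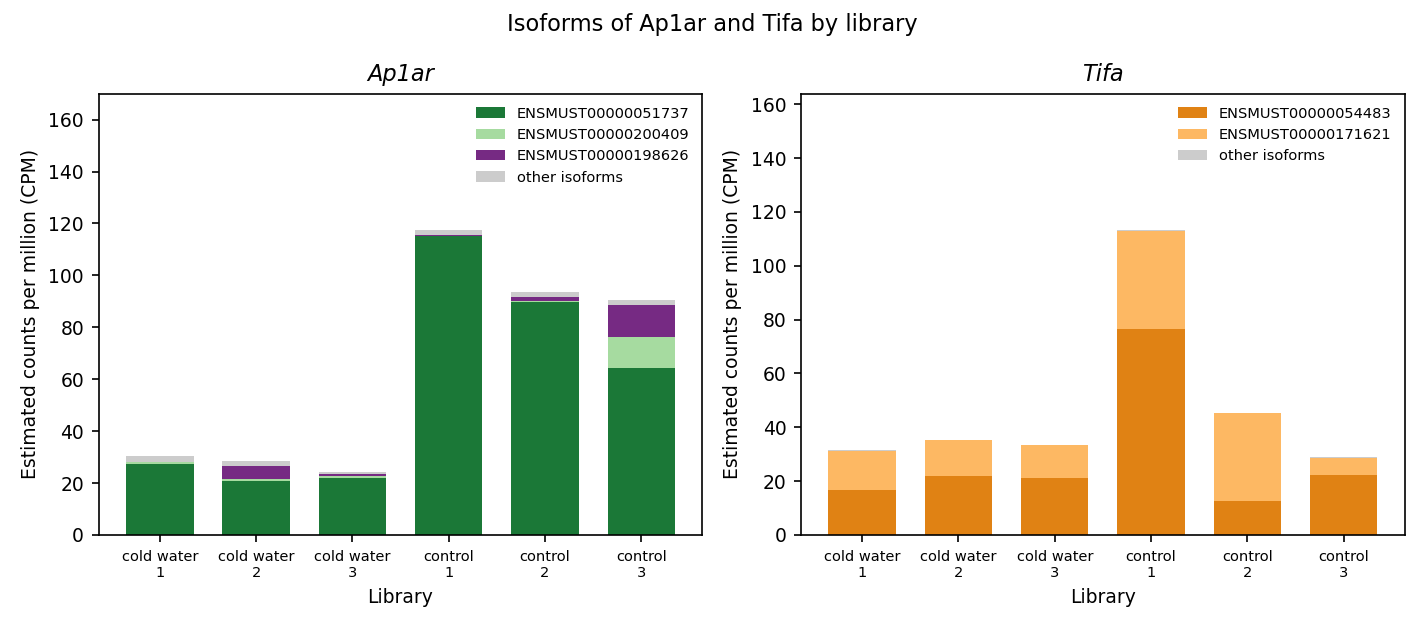
Isoforms of Ap1ar and of Tifa in each library, as stacked bars in CPM. The full-length isoform makes up most of each Ap1ar bar (71.1 to 98.0% of its counts), and the tall Tifa bar of control 1 stands apart from the other 5.

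Another 3 genes of the table overlap the span of Ap1ar, and the data do not say whether reads were counted by strand. Gm43653, annotated as antisense, was the sole gene to share exonic bases with Ap1ar, 355 of them at its first exon, and its count was 0 to 20 per library, at most 0.864% of the Ap1ar count. Gm43654 (0 to 18 counts) shares no exonic base with it. The main Tifa isoforms end at base 127798389, 8617 bases beyond the last exon of Ap1ar, and 1 minor isoform (ENSMUST00000166778, 3 to 10 counts) runs through Ap1ar without touching an exon. Summed over Ap1ar and all 3 neighbours, the locus had a log2 difference of -1.41 (SE 0.255), and -1.07 without control 1, in which Tifa was high. With Ap1ar and the transcript sharing its exonic bases alone it was -1.86 (SE 0.157).

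**Figure D3:**
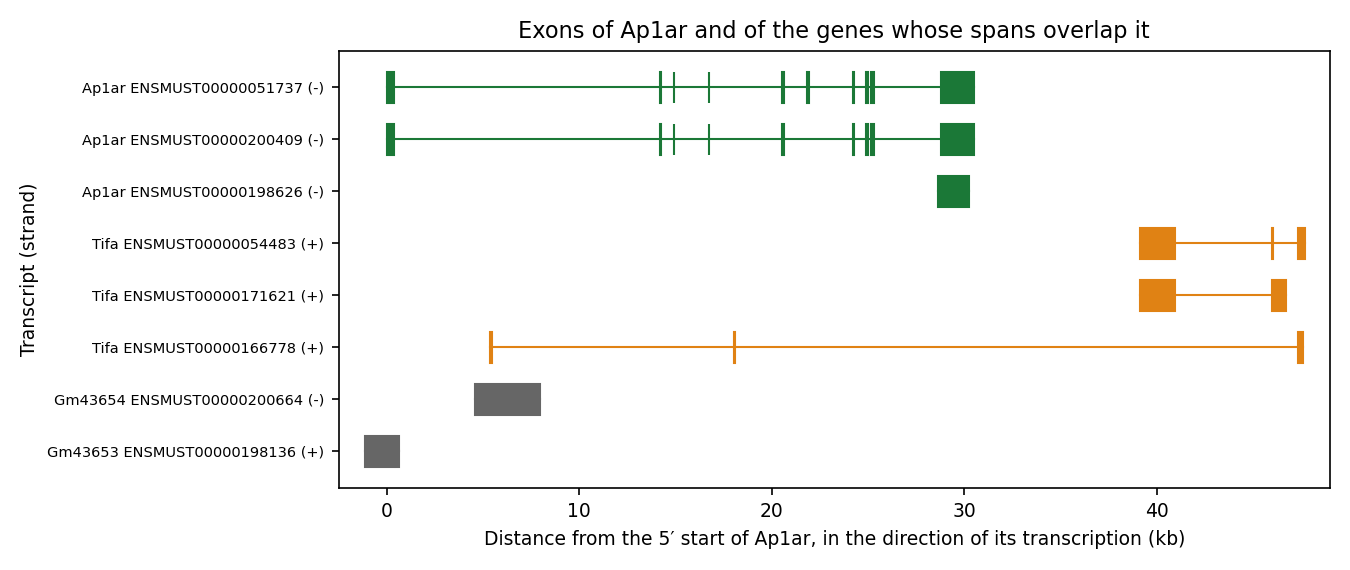
Exons of Ap1ar and of the genes that overlap its span, drawn to scale by distance in kilobases from the 5′ start of Ap1ar. The main Tifa isoforms lie past the 3′ end of Ap1ar, 8617 bases from its last exon, and only Gm43653 overlaps an Ap1ar exon.

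Tifa (ENSMUSG00000046688, chr3:127789805-127832164, plus strand) encodes the adaptor that passes the ALPK1 signal to TRAF6, and its level did not separate the groups. It was 12.9, 13.9 and 12.2 FPKM in cold water and 45.1, 18.3 and 10.6 FPKM in control. The cold water libraries lay between the controls, which differed among themselves by 3.87-fold in CPM. The group means were 33.4 ± 2.56 and 62.5 ± 44.9 CPM (SD, n = 3 libraries), with a log2 difference of -0.90 (SE 0.469, 95% interval -2.02 to 0.21, edgeR adjusted p = 0.878). Without control 1 the difference was -0.14. The library that was high for Tifa, control 1, also had a summed level of 1273 CPM for 12 interferon response genes. Control 3, with the least Tifa, had 1995 CPM for the same genes, and the other 4 libraries had 432 to 522 CPM. The part of interferon response in the Tifa values was not tested.

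Both main Tifa isoforms share their last exon and differ in their 5′ exons. ENSMUST00000054483 was at 7.20, 8.86 and 7.96 FPKM in cold water and 31.6, 5.53 and 8.30 FPKM in control. ENSMUST00000171621 was at 5.47, 4.80 and 3.99 FPKM in cold water and 13.3, 12.5 and 2.18 FPKM in control. Control 1 was thus the highest library for both, and the groups overlapped for both.

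None of the 8 AP-1 subunit genes passed the test, in either direction, in the same model of all genes. Over the 12939 genes tested, the quasi-likelihood test of edgeR called 5 genes at a Benjamini-Hochberg adjusted p below 0.05, which is 0.0386% of them (0.0232% lower and 0.0155% higher in cold water). Of the subunits and Tifa 0 of 9 were called, with adjusted p from 0.878 to 0.990, and 0 of 9 had an unadjusted p below 0.05, against 5.01% of all genes. DESeq2 and limma also called 0 of 9. Of the 8 subunits 4 were higher and 4 lower in cold water, beside 45.8% lower among all genes. Their median log2 difference was -0.02, and that of all genes tested was 0.03. One of them, Ap1m2, was lower in cold water with no overlap in CPM, where 5.22% of all genes were. Their summed level was 517.5, 561.8 and 578.3 CPM in cold water and 573.2, 518.1 and 573.8 CPM in control, so the groups overlapped. These counts say what was called, and the intervals given below say how large a difference each gene still allows.

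**Figure D4:**
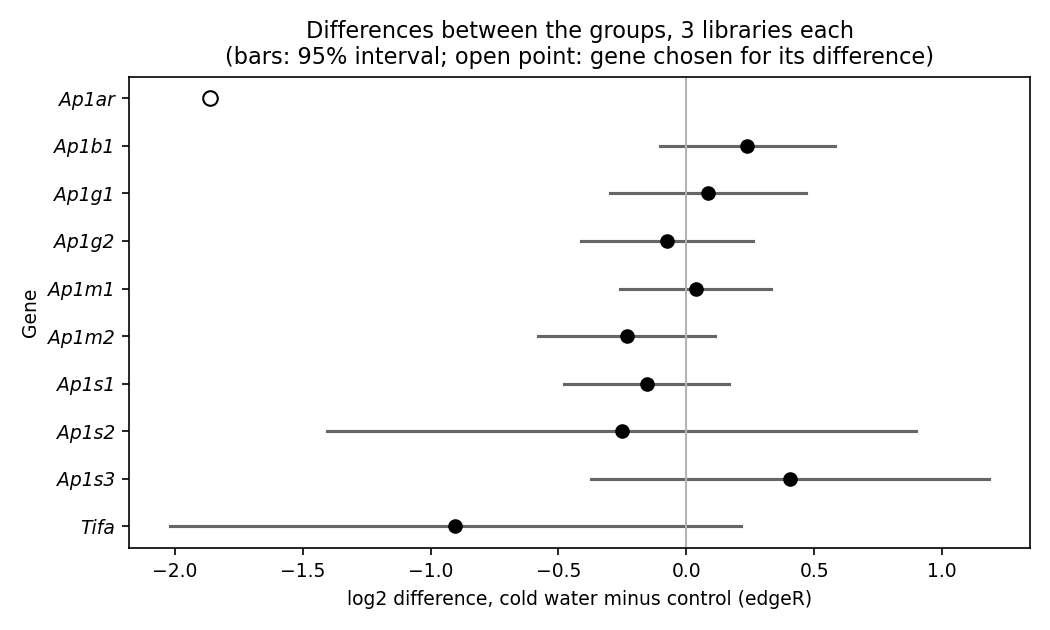
Log2 difference in level, cold water minus control, for each gene, with 95% intervals from the edgeR fit for the 8 AP-1 subunits and Tifa. Ap1ar is an open point with no interval because it was chosen for this difference; the 9 intervals all include 0.

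By length-scaled level, Ap1s1 was the most abundant member at 75.8 ± 10.1 FPKM (mean ± SD over all 6 libraries) and Ap1m2 next at 53.2 ± 8.32. Ap1g1, Ap1g2 and Ap1b1 followed at 29.7 ± 8.88, 28.4 ± 2.01 and 27.6 ± 3.50 FPKM, and the spread of Ap1g1 includes cold water 1 at 11.8 FPKM. In cold water the libraries of these genes overlapped. In control they did not, with 33.5 to 35.0 FPKM for Ap1g1, 28.3 to 31.4 for Ap1g2 and 22.9 to 26.9 for Ap1b1. A short isoform of Ap1g1, described below, held 74.0% of its FPKM in control. Ap1m1 had 22.9 ± 1.75 FPKM. Ap1ar, at 24.0 FPKM over all 6 libraries, stood at 37.1 ± 4.79 FPKM in control and at 10.9 ± 2.09 FPKM in cold water. The control means of Ap1g1 and Ap1g2 were 34.0 ± 0.815 and 29.6 ± 1.64 FPKM, and in control 3 Ap1ar was below Ap1g1. Ap1s3 and Ap1s2 were the least abundant at 5.89 ± 1.74 and 1.71 ± 0.920 FPKM.

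The large subunits bind clathrin and cargo and, through the ear of gamma, accessory proteins and gadkin. Ap1b1 (ENSMUSG00000009090, chr11:4986824-5042791), the beta1 subunit, was at 29.7, 33.2 and 26.3 FPKM in cold water and 22.9, 26.9 and 26.7 FPKM in control. The groups overlapped, with means of 122 ± 14.8 and 103 ± 7.57 CPM, a log2 difference of 0.24 and a 95% interval of -0.10 to 0.58. Ap1g2 (ENSMUSG00000040701, chr14:55098575-55106593), the gamma2 subunit, was at 26.5, 29.3 and 25.9 FPKM in cold water and 31.4, 29.1 and 28.3 FPKM in control. Its difference was -0.08 with an interval of -0.41 to 0.26. Its leading isoform, ENSMUST00000151314, is annotated as a target of nonsense-mediated decay and held 46.0% of the gene's FPKM in cold water and 47.1% in control. The coding isoform ENSMUST00000170285 held 15.6 and 12.6%.

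Ap1g1 (ENSMUSG00000031731, chr8:109778554-109864204), the gamma1 subunit, gave different pictures in FPKM and in counts. Its level was 11.8, 31.0 and 33.3 FPKM in cold water and 35.0, 33.6 and 33.5 FPKM in control, so cold water 1 stood far below the others and the FPKM groups did not overlap. Its estimated counts were 6410, 6460 and 6660 in cold water and 5804, 6466 and 6590 in control, with no library apart. The CPM means were 88.3 ± 13.5 and 83.2 ± 8.84, and the log2 difference was 0.08 (SE 0.161, interval -0.30 to 0.47). By limma on log2(FPKM + 1) it was -0.54, in the other direction and also not called, with an adjusted p over all alternatives of 0.853 or more.

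The low FPKM of cold water 1 went with a short isoform. ENSMUST00000179104 is a single exon of 1096 bases inside the last exon of the full-length isoform ENSMUST00000093157, so reads there can be assigned to either. It was given 14, 1910 and 1728 counts in cold water and 2591, 2226 and 2022 in control, which is 0.14, 21.6 and 19.8 FPKM against 28.6, 25.4 and 21.5 FPKM. The full-length isoform was in turn highest in cold water 1, with 10.2, 7.91 and 4.38 FPKM in cold water and 5.50, 7.42 and 3.45 FPKM in control. FPKM divides by length, which is 1096 bases for the short isoform and 6899 bases for the full-length one, so counts assigned to the short isoform weigh more in the gene's FPKM. The short isoform was lower in cold water without overlap in CPM but not in FPKM, where cold water 2 stood above control 3. Its CPM gave a log2 difference of -0.80 with an interval of -4.31 to 2.72, and it was not called (edgeR adjusted p = 1.0).

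Ap1g1 also differs by a microexon. Exon 7 of ENSMUST00000093157, of 9 bases at chr8:109830613-109830621 on the plus strand, adds 3 codons that ENSMUST00000034171 lacks, and the latter has a shorter last exon as well. The exon is printed in capitals with 20 coding bases from each flanking exon, because the counts assigned to the isoform without it differed widely between libraries of a group. Reads over the exon itself were not measured here, and the different last exon can move the assignment as well.
Ap1g1 exon 7: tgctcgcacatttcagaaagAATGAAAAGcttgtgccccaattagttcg
The isoform without it was assigned 37.5% of the gene's counts in cold water 3 and 37.8% in control 3, and 0.758 to 4.35% in the other 4 libraries. Its level was 0.88, 0.36 and 8.48 FPKM in cold water and 0.14, 0.40 and 7.88 FPKM in control. Library 3 of each group was thus high and the groups overlapped, with an interval of -4.49 to 4.88 for the log2 difference.

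The medium subunits recognise sorting signals in cargo tails. Ap1m1 (ENSMUSG00000003033, chr8:72240018-72257385) encodes the ubiquitous mu1A and was at 25.7, 22.5 and 22.3 FPKM in cold water and 24.0, 22.4 and 20.6 FPKM in control. It had the narrowest interval of the members, -0.26 to 0.33 around a difference of 0.04. Ap1m2 (ENSMUSG00000003309, chr9:21294275-21312337) encodes the epithelial mu1B and was at 51.9, 50.6 and 43.8 FPKM in cold water and 67.2, 58.0 and 47.7 FPKM in control. In FPKM the groups overlapped. In CPM they did not, with 84.6, 90.9 and 88.5 in cold water and 121, 95.7 and 93.7 in control, a log2 difference of -0.23 (SE 0.145, interval -0.58 to 0.11, edgeR adjusted p = 0.878). Epithelial marker genes, which mark the cells that use mu1B, summed to 9769 to 15060 CPM in cold water and 7809 to 11990 CPM in control, and the groups overlapped. In bulk tissue fewer epithelial cells and less RNA per cell cannot be told apart.

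Of the summed FPKM of both mu1 genes, Ap1m2 held 66.9, 69.2 and 66.3% in cold water and 73.7, 72.1 and 69.9% in control. Every cold water library was below every control, by 4.43 percentage points on the means (67.5 ± 1.54 against 71.9 ± 1.91%, SD, n = 3). An exact two-sided permutation test gave p = 0.1, the smallest that 3 against 3 libraries allow, or 0.3 after adjustment over the 3 subunit shares compared, so this does not pass. The groups stayed apart, though narrowly, for the share of counts (-4.06 points) and for coding isoforms alone (-2.90 points). For counts the highest cold water library had 65.95% and the lowest control 66.02%. For coding isoforms these were 71.75 and 71.88%.

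**Figure D5:**
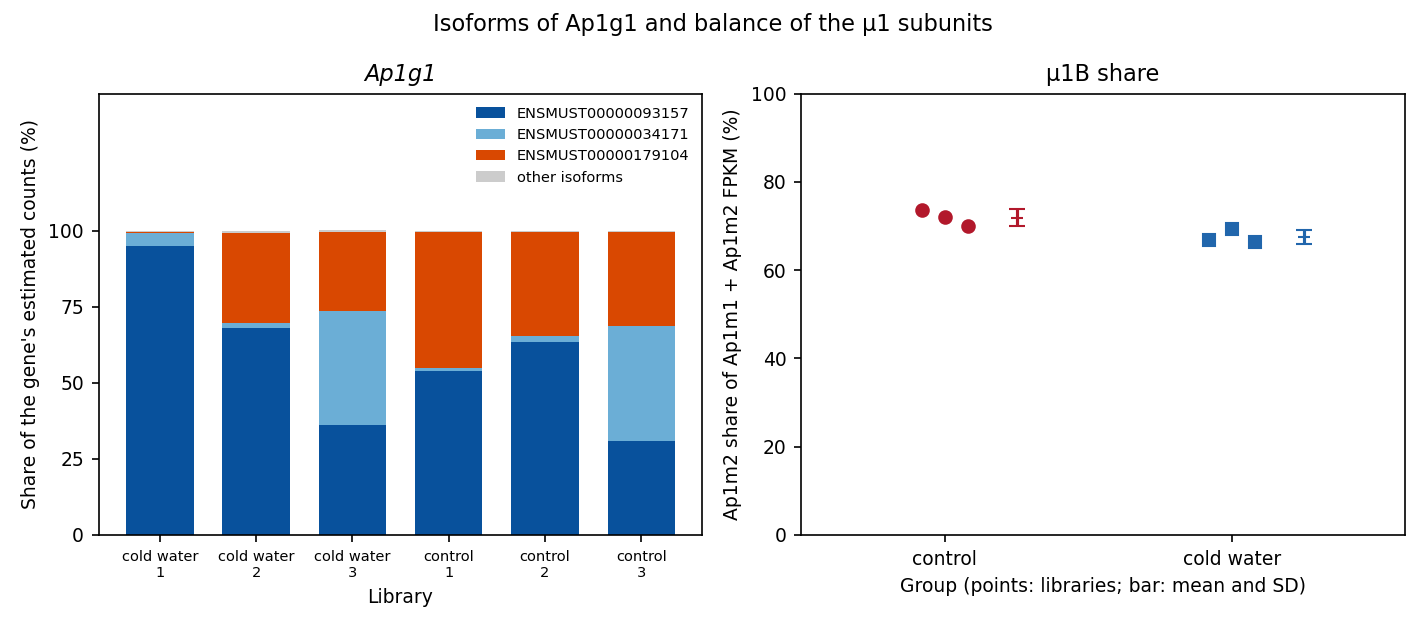
Assignment of Ap1g1 counts among its isoforms, in percent per library, and the share of Ap1m2 in the summed FPKM of both mu1 genes, in percent per library. Cold water 1 has almost no counts in the single-exon Ap1g1 isoform, library 3 of each group has more than 37% in the isoform lacking exon 7, and the Ap1m2 share is 66.3 to 69.2% in cold water against 69.9 to 73.7% in control.

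The small sigma subunits stabilise the coat and help to bind cargo. Ap1s1 (ENSMUSG00000004849, chr5:137034993-137046135), sigma1A, was at 83.7, 71.3 and 59.9 FPKM in cold water and 88.3, 78.7 and 72.7 FPKM in control. The groups overlapped, with a log2 difference of -0.16 (interval -0.48 to 0.17). Ap1s3 (ENSMUSG00000054702, chr1:79606876-79671972), sigma1C, was at 6.01, 5.66 and 9.06 FPKM in cold water and 3.95, 4.74 and 5.92 FPKM in control. Cold water 3 was the highest, and the difference of 0.40 (interval -0.37 to 1.18) was -0.00047 without that library. Ap1s1 held 91.2, 90.9 and 85.9% of the summed sigma1 FPKM in cold water and 93.5, 91.0 and 91.8% in control, which overlapped (exact two-sided permutation test, p = 0.2, adjusted 0.3 over the 3 shares). Ap1g2 held 69.3, 48.6 and 43.8% of the summed gamma FPKM in cold water and 47.3, 46.4 and 45.8% in control (p = 0.6 by the same exact test), a difference of 7.38 points that was -0.32 without cold water 1 and -2.61 in counts.

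Ap1s2 (ENSMUSG00000031367, chrX:163909017-163933666), sigma1B, was the rarest, at 2.05, 1.49 and 0.81 FPKM in cold water and 2.25, 3.03 and 0.60 FPKM in control. Its interval was wide, -1.41 to 0.90 around a difference of -0.25, the widest among the subunits. Its 3 main coding isoforms share the first 3 coding exons and differ after them. ENSMUST00000069041 has a microexon of 9 bases, exon 5 at chrX:163931363-163931371, that ENSMUST00000033734 skips, and both end in the same 15 codons. ENSMUST00000112294 ends in 18 other codons at chrX:163926903-163926956. The sequences show where the ends differ, with exon 5 in capitals between its flanking coding bases.
Ap1s2 exon 5 in ENSMUST00000069041: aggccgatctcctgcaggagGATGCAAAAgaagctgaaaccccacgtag
Ap1s2 end of ENSMUST00000069041 and ENSMUST00000033734: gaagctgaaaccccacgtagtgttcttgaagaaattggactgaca
Ap1s2 end of ENSMUST00000112294: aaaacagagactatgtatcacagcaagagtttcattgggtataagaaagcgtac
ENSMUST00000033734 was at 1.26 FPKM in cold water 1, 1.55 in control 1 and 2.23 in control 2, and had a count of 0 in cold water 2, cold water 3 and control 3. ENSMUST00000069041 was at 0.55, 0.99 and 0.55 FPKM in cold water and 0.40, 0.01 and 0.42 FPKM in control. All 3 were below the filter for transcripts and were not tested.

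Single isoforms gave no further call among the subunits and Tifa. Of their 56 isoforms 23 passed the filter, 11 were higher and 12 lower in cold water, and 0 were called by edgeR, DESeq2 or limma. Of the 21041 transcripts tested, edgeR called 0.0285% (0.0238% lower and 0.00475% higher), and 48.0% were lower in cold water. One had an unadjusted p below 0.05, against 4.73% of all transcripts. It was ENSMUST00000156735, a retained-intron transcript of Ap1m1, at 2.79, 3.22 and 2.54 CPM in cold water and 1.25, 1.29 and 2.09 CPM in control. Its cold water libraries were all above its controls, as for 5.67% of all transcripts, and 1 isoform, the short one of Ap1g1, was lower without overlap in CPM alone, as for 5.39%. The retained-intron transcript had a log2 difference of 0.88 (interval 0.00083 to 1.77, edgeR adjusted p = 0.96). The main isoforms of Ap1b1, Ap1m1, Ap1m2 and Ap1s1 each held at least 83.9% of their gene's FPKM in both groups.

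The partners of gadkin and AP-1 were followed by 10 lists of vesicle transport genes, and the TIFA pathway by a list of its own. Of the 10 lists' 71 genes 65 were tested, and 41 were higher and 24 lower in cold water, beside 45.8% lower among all genes. By edgeR, DESeq2 or limma 0 were called, with log2 differences from -0.74 to 0.78. These extremes were Pi4k2a and Gga2, named after their values were seen. The median was 0.05, beside 0.03 over all genes, and 3 of the 65 genes had an unadjusted p below 0.05, a share near the 5.01% of all genes. In CPM 2 of the 65 were lower and 3 higher without overlap, beside 5.22% and 5.3% of all genes. The kinesin-1 subunits, the motor to which gadkin links AP-1 vesicles, gave 2 higher and 3 lower of 5 tested, 0 of them called, with a median of -0.03. Kif5b, the motor's widely expressed heavy chain, was at 106, 97.4 and 98.5 CPM in cold water and 77.7, 92.9 and 76.3 CPM in control, higher without overlap, where 5.3% of all genes were, with a difference of 0.29 and an interval of -0.03 to 0.61. Klc4, a light chain, had a difference of 0.15.

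The Arp2/3 complex, which gadkin holds inactive, gave 6 higher and 3 lower of 9 tested, 0 of them called, with a median of 0.10. Arpc4 was at 126, 127 and 135 CPM in cold water and 50.6, 137 and 60.2 CPM in control, so 2 of the controls were low and the groups overlapped (difference 0.65, interval -0.23 to 1.52). Arpc5 was at 64.7 ± 18.0 CPM in cold water and 89.4 ± 28.1 in control (SD, n = 3). Among the 8 recruitment genes, the Arf proteins, their exchange factors and the phosphatidylinositol kinases that bring AP-1 to membranes, 5 were higher and 3 lower, and 0 were called. Pi4kb was higher without overlap, as were 5.3% of all genes, at 40.3, 40.7 and 49.6 CPM against 35.6, 34.4 and 31.5 CPM. Its difference was 0.36 (interval 0.03 to 0.70, edgeR adjusted p = 0.878). Arf5 was lower without overlap, as were 5.22% of all genes, at 251.1, 237.7 and 246.7 CPM against 366, 274 and 298 CPM. Its difference was -0.35 (interval -0.72 to 0.01).

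Of the 12 accessory proteins 9 were higher and 3 lower, beside 45.8% lower among all genes, with a median of 0.08, and 0 were called. Scyl2, a clathrin-binding pseudokinase, had the smallest unadjusted p of the vesicle transport lists. It was at 40.8, 35.1 and 28.9 CPM in cold water and 18.7, 22.0 and 26.6 CPM in control. Scyl2 was thus higher without overlap, as were 5.3% of all genes (difference 0.64, interval 0.17 to 1.11, edgeR adjusted p = 0.878). It was picked by its p, which the interval does not allow for. Gga3, a monomeric clathrin adaptor of the same route, was at 16.5, 16.5 and 27.7 CPM in cold water and 27.1, 41.0 and 28.7 CPM in control (difference -0.67, interval -1.32 to -0.03, edgeR adjusted p = 0.878). The clathrin genes gave 3 higher and 2 lower of 5, with Clta at -0.24 and Cltc at 0.11. The cargo genes gave 7 higher and 1 lower of 8, with Furin, a protease recycled through the Golgi, at 0.42 and M6pr, a lysosomal enzyme receptor, at 0.26, and 0 were called in either list.

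The other adaptor complexes are relatives of AP-1 that work on other membranes or routes. Among 5 tested genes of AP-2, 5 of AP-3, 4 of AP-4 and 4 of AP-5, 0 were called, and the median log2 differences were -0.08 for AP-2, -0.04 for AP-3, 0.02 for AP-4 and 0.04 for AP-5. Ap2s1, the small subunit of the plasma membrane adaptor AP-2, was at 151, 158 and 151 CPM in cold water and 209, 163 and 166 CPM in control. It was lower without overlap, as were 5.22% of all genes (difference -0.23, interval -0.57 to 0.11). Ap2a1, Ap3m1, Ap3s2, Ap4e1, Ap4s1, Ap5s1 and Ap5z1 had differences of 0.12, 0.15, -0.11, 0.21, -0.22, -0.40 and 0.10. The TIFA pathway gave 5 higher and 2 lower of 7 tested, with 0 called, and Alpk1, the kinase above TIFA, had 13.8 ± 2.37 CPM in cold water and 9.29 ± 4.41 in control, and Traf2 28.9 ± 6.50 and 24.7 ± 0.0709 CPM (SD, n = 3).

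The 5 genes whose log2(CPM + 1) followed Ap1ar most closely across the 6 libraries were Bfsp1 (Pearson r = 0.995), Col4a3bp (0.993), Gm15743 (0.993), Gm14173 (0.990) and Mfsd3 (0.985). These are descriptions over 6 libraries that fall into the same 2 groups, with no test. Col4a3bp, which encodes a ceramide transport protein, was at 14.1, 12.3 and 12.5 CPM in cold water and 48.6, 46.3 and 44.4 CPM in control, a log2 difference of -1.84. Bfsp1, a filament protein known from the eye lens, was at 12.6, 12.6 and 12.2 CPM in cold water and 26.4, 22.0 and 24.7 CPM in control. Among the members the closest were Ap1m2 (r = 0.754) and Ap1s1 (0.689), and Ap1b1 went the other way (-0.745).

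The libraries also differed in their cell type markers. Cold water 1 had 192 CPM summed over 6 B cell markers, against 5.63 to 13.2 CPM in the other 5, and 75.2 CPM over 6 T cell markers against 19.5 to 45.2. Its 6 macrophage markers summed to 113.4 CPM, against 36.7 to 54.7 CPM in the other 5. The smooth muscle markers ranged from 502 to 4352 CPM over all 6 libraries, across both groups. Their sums were 2055, 3877 and 1014 CPM in cold water 1, 2 and 3. In control 1, 2 and 3 they were 1753, 4352 and 502 CPM, so library 2 was highest and library 3 lowest in each group. The enteric neuron markers had the same order. The part of cell makeup in the values of Ap1ar and of the other members was not tested.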

How the data were processed

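Intestinal RNA of 3 cold water and 3 control libraries was analysed. Per the labels' protocols, total RNA was depleted of ribosomal RNA and read from both ends, and the submitters' processing notes list StringTie 1.3.4d, HISAT2 2.0.4, cutadapt 1.9, FastQC 0.10.1, DESeq2 and edgeR. The genome build is not given in the sources used here, nor are tool roles and strand. Per the file headers, the authors deposited FPKM and estimated counts per transcript. Low counts gathered at steps of 3.77, taken as the worth of a fragment, which puts library totals of 72690433 to 78668871 counts at about 19281300 to 20867100 fragments. FPKM listed for transcripts with a count of 0 was set to 0. All 66 member transcripts matched GENCODE M21.

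Counts were summed by gene symbol. Those reaching 1 FPKM on average, and transcripts likewise, were tested with edgeR 4.0.16 (R 4.3.3), a quasi-likelihood test, TMM scaling and Benjamini-Hochberg adjustment over 12939 genes or 21041 transcripts. Log2 differences are cold water minus control, and intervals are 95%, approximate. Shares were compared by exact permutation over libraries. Alternatives used DESeq2 1.42.0 and limma 3.58.1, other scalings and filters, and left out each library. Members and lists were chosen with earlier results of these data known. Named genes were all members, the genes overlapping Ap1ar, isoforms with at least 10% of a member's FPKM in either group, the 2 genes of smallest unadjusted p per list and the 5 most like Ap1ar. Pi4k2a and Gga2 were named outside this rule.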

Additional observations from a re-analysis of the deposited data

How the results depend on the processing

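Over 15 alternatives the difference of Ap1ar, which was chosen for it, ranged from -1.94 to -1.68, the latter with limma on log2(FPKM + 1). The subunits, Tifa, their isoforms and the vesicle lists kept 0 calls. The number of calls over all genes, 5, was 71 with DESeq2, 3 with counts per fragment, with limma on either pseudocount, with no filter or with no scaling, 0 with the replicate block and 0 to 1 when single libraries were left out. Over all transcripts, 6 were called, 585 with DESeq2, 22 and 23 with limma on log2(FPKM + 0.1) and log2(FPKM + 1), 0 with no filter or with the replicate block, 2 with no scaling and 0 to 10 with a library left out. The cause was not tested. Deviations of same-numbered libraries correlated at -0.0024, 0.241 and 0.446. Cold water 2 and cold water 3 each correlated best with the control of the same number, and cold water 1 with control 2 (0.198). These values do not settle whether the replicate numbers mark pairs. The Ap1ar locus gave -1.86 with exon-sharing transcripts alone. The Ap1g2 share, 7.38 points, was -2.61 in counts, -6.78 without the single-exon Ap1g1 isoform and -0.32 to 12.4 with a library left out. The alternatives by exon-sharing transcripts, by coding isoforms and without the single-exon isoform were chosen after seeing the data. Ap1g1 reversed to -0.56 and -0.54 with limma (+ 0.1 and + 1) and Ap5z1 to -0.070 and -0.058. With a library left out, Ap1g1 ranged from -0.068 to 0.19, Ap1m1 from -0.033 to 0.091, Ap1s2 from -0.64 to 0.097, Ap1s3 from -0.00047 to 0.65, Klc4 from -0.11 to 0.32, Ap5z1 from -0.19 to 0.26 and Traf2 from -0.00093 to 0.34. Among isoforms, ENSMUST00000054483 ranged from -1.31 to 0.19, ENSMUST00000034171 from -2.37 to 3.76, ENSMUST00000003117 from -0.050 to 0.047 (0.027 with a mean of at least 5 FPKM) and ENSMUST00000162342 from -0.0075 to 0.59. In all, 449 of 461 values of single genes and 198 of 206 of single isoforms kept their direction and call. Depth was about 19281300 to 20867100 fragments per library, and Ap1s2, the least abundant member, had the widest interval of the subunits.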
